A study of Mus musculus with 16 samples.

Results

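Schwann_14 is one of 2 clusters of cells that the authors named as Schwann cells in single-cell RNA sequencing of mouse brown adipose tissue, and its members were taken as every cell carrying that name in the deposited table of named cells. There were 763 of them, 3.13% of the 24352 named cells, 0.695% of the 109723 cells in all, and 60.4% of the 1263 Schwann cells, the other 500 being Schwann_18. All cells came from the stromal vascular fraction, the cells left after the fat cells have been floated off, of the interscapular brown fat of C57BL6J mice. The groups were 7 days at 5 °C, 2 days at 5 °C, room temperature at 22 °C and thermoneutral housing at 30 °C, with 4 libraries each. The series' design text gives the thermoneutral stay as 1 week, whereas the treatment protocol attaches the 1 week to room temperature. The labels give neither the age of the mice nor whether a library came from 1 animal or a pool, so p-values measure the spread between these libraries, which may be technical. The comparison between housing conditions asks how the make-up of the tissue changes with cold.

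Schwann cells are the glia of peripheral nerves. They wrap axons, in some nerves with a myelin sheath and in others, such as the thin sympathetic fibres, without one. Brown fat is densely supplied by sympathetic nerves, whose noradrenaline drives heat production, and it also has sensory nerves. Which of these nerves the Schwann cells here came from is not known. Sox10, a transcription factor of the glial lineage, and Mbp, a protein of the myelin sheath, usually mark them. Gene values were not analysed here, so the name Schwann_14 was not checked against Sox10 or Mbp and stands as the authors' name.

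Between 1473 and 10005 cells were read per library, and the median count of UMIs (unique molecular identifiers, which count distinct RNA molecules) per cell ran from 1978.5 to 9819. No cell of 2-day cold replicate 1 had a name, and its median mitochondrial share was 29.1%, whereas the other 15 libraries had 2.47% to 6.01%. Named-cell values therefore have 3 libraries for 2-day cold. In 5 libraries (2-day cold replicates 1 and 4, room temperature replicate 3 and thermoneutral replicates 1 and 3) the cell number lay between 10000 and 10005. Of the 120 pairs of libraries none shared more than 39 cell barcodes, and no barcode was Schwann_14 in more than 1 library. Doublets were not called. Of the 763 cells, 10 had more than 3 times the median UMI count of the Schwann_14 cells of their library, and 2 had a mitochondrial share of 20% or more.

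Schwann_14 took up a larger share of the named cells after 7 days of cold than in any library of the other conditions. The libraries of 7-day cold held 72, 108, 70 and 26 Schwann_14 cells, which were 9.18% (95% Wilson interval 7.36 to 11.4), 10.1% (8.44 to 12.1), 11.5% (9.17 to 14.2) and 5.53% (3.80 to 7.98) of their named cells. The 3 libraries of 2-day cold with named cells held 91, 64 and 53 cells, or 3.61% (2.95 to 4.41), 4.17% (3.28 to 5.29) and 2.50% (1.92 to 3.25). The 7-day libraries thus all lay above the 2-day ones, and the lowest of them was replicate 4, which held the fewest cells of its group. Room temperature gave 17, 78, 34 and 6 cells, or 1.01% (0.632 to 1.61), 2.53% (2.04 to 3.15), 1.78% (1.28 to 2.48) and 1.68% (0.773 to 3.62). Thermoneutral housing gave 100, 7, 13 and 24 cells, or 2.67% (2.20 to 3.24), 1.31% (0.636 to 2.68), 0.938% (0.549 to 1.60) and 0.939% (0.632 to 1.39). The room-temperature and thermoneutral libraries overlapped, and the 2-day range overlapped both of them, through room temperature replicate 2 and thermoneutral replicate 1. The intervals cover counting error alone.

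Averaged over libraries, the share was 9.07% ± 2.54 (SD, n = 4) in 7-day cold, 3.43% ± 0.851 (n = 3) in 2-day cold, 1.75% ± 0.624 (n = 4) at room temperature and 1.47% ± 0.825 (n = 4) in thermoneutral housing. The 7-day mean was 6.19 times the thermoneutral one, 5.18 times that of room temperature and 2.65 times that of 2-day cold. Of all 763 cells, 36.2% came from 7-day cold, which supplied 12.0% of the named cells and 19.0% of all cells.

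Shares were tested as log2 odds, the log2 of the cells inside a cluster over the cells outside it, with a limma fit over the 27 named clusters whose mean per library was 10 cells or more. The threshold was a Benjamini-Hochberg adjusted p of 0.05 within a contrast. In 7-day cold against thermoneutral housing the Schwann_14 log2 odds were higher by 2.81 ± 0.46 (limma estimate ± standard error, adjusted p = 0.000266). In that contrast 37.0% of the clusters passed the threshold, 9 higher and 1 lower. That split depends on the scale, with 4 higher and 6 lower under centred log ratios, 8 and 4 under edgeR with TMM, 7 and 2 under edgeR with library totals, 1 and 2 outside VSM and 2 and 1 against EC cells, and Schwann_14 was higher in each. The fits outside VSM and against EC cells left out those clusters, so fewer than 27 were tested there. Against room temperature the difference was 2.47 ± 0.46 (limma adjusted p = 0.00199), in a contrast where 7.41% of the clusters passed. With a covariate that separates replicates 1 and 2 from 3 and 4, the clusters that passed, Schwann_14 among them, were 17 of 27 against thermoneutral housing, in place of 10, and 8 against room temperature, in place of 2. By size of difference Schwann_14 ranked 4 of 27 against thermoneutral housing, after Adipo_16, Adipo_24 and Schwann_18, and 2 of 27 against room temperature, after VSM_27, which was lower in the cold. An exact two-sided permutation test over the 4 and 4 libraries gave p = 0.0286 for either comparison, the smallest of its 70 assignments can give.

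In each condition the Schwann_14 cells of replicates 1 and 2 were deeper than those of replicates 3 and 4, wherever a library had at least 10 of them, and the pairs were therefore read apart. In replicates 1 and 2 the log2 odds in 7-day cold were higher by 2.44 than in thermoneutral housing and by 2.69 than at room temperature. In replicates 3 and 4 the differences were 3.18 and 2.26. Both contrasts thus pointed the same way in each pair of replicates. Restricted to cells no shallower than the median of their library, the differences were 4.68 (limma adjusted p = 0.00708) and 4.75 (0.0123). That restriction kept 58.0% of the Schwann_14 cells in 7-day cold, 17.8% at room temperature and 25.7% in thermoneutral housing, with none of the 17 in room temperature replicate 1 and 1 each in thermoneutral replicates 3 and 4. As the conditions were restricted unequally, these values are not read as support for the difference in share.

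**Figure D1:**
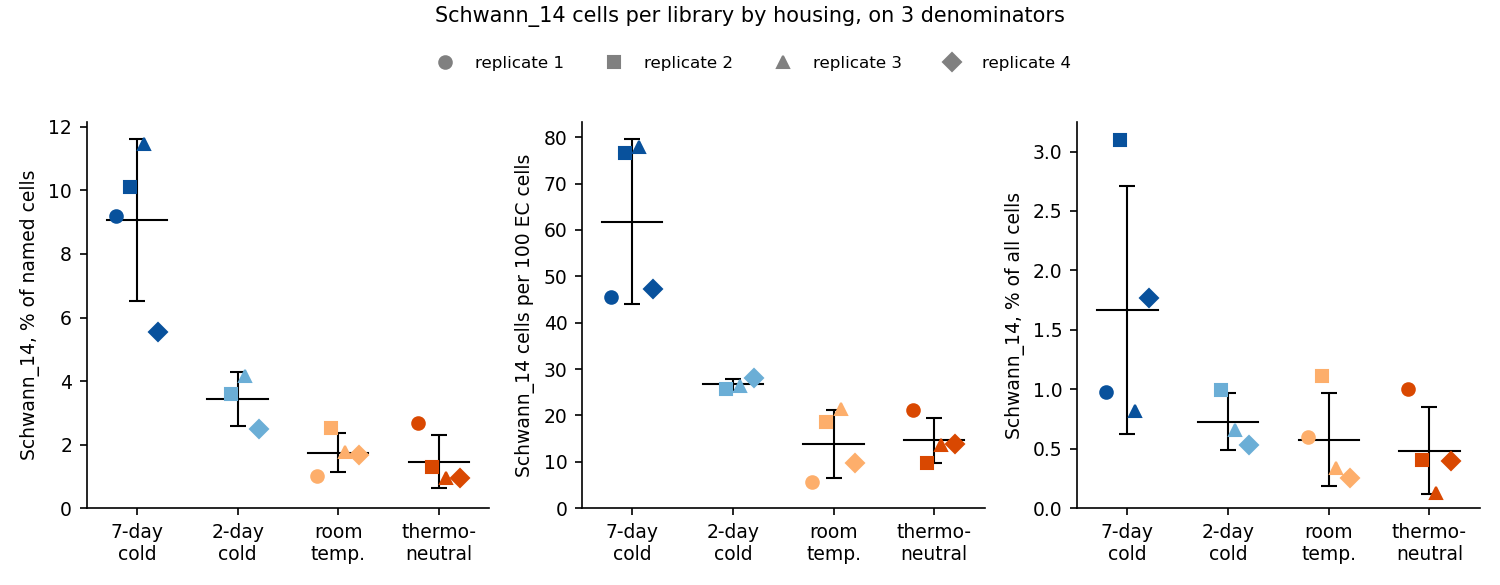
Schwann_14 cells of each library (points, shaped by replicate number) by housing condition, in percent of named cells (left), per 100 EC cells (middle) and in percent of all cells (right), with horizontal bars at the group means and error bars of 1 SD. The 4 libraries of 7-day cold sit between 5.53% and 11.5% of named cells, above every library of the other conditions, which reach at most 4.17%, and overlap the others over all cells.

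The 2-day libraries lay between these extremes without a call. In 2-day cold against thermoneutral housing the log2 odds differed by 1.33 ± 0.49 (limma adjusted p = 0.0893), and 11.1% of the clusters passed. Without thermoneutral replicate 1, the library with the highest share of its group, this difference was 1.66 and did pass (limma adjusted p = 0.0201). No other of the 15 fits that left out 1 library passed, nor did any of 19 other settings. In replicates 1 and 2 the difference was 0.92, over a single 2-day library, and in replicates 3 and 4 it was 1.79. Against room temperature the 2-day difference was 1.00 ± 0.49 (limma adjusted p = 0.254), where 0% of the clusters passed by limma and 3 had an unadjusted p under 0.05.

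In 7-day against 2-day cold, Schwann_14 differed by 1.48 ± 0.49 (limma adjusted p = 0.246), although the libraries did not overlap. In this contrast 0% of the 27 clusters passed, 2 had an unadjusted p under 0.05, and the exact permutation test gave p = 0.0571, the smallest that 4 libraries against 3 allow. The difference was 1.51 in replicates 1 and 2 and 1.39 in replicates 3 and 4. Of 19 alternative settings this difference passed in 1, an arcsine scale (limma adjusted p = 0.0255). It passed in none of the 15 fits that left out 1 library. Room temperature against thermoneutral housing differed by 0.33 ± 0.46 (limma adjusted p = 0.748), with 0% of clusters passing and 1 with an unadjusted p under 0.05, and the pairs of replicates pointed opposite ways, by -0.26 in replicates 1 and 2 and by 0.92 in replicates 3 and 4.

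A share depends on what else is in the denominator, and many of the named cells were those of the VSM clusters, a name that the series title spells out as vascular smooth muscle. VSM-AP_6 was not counted among them. VSM clusters made up 30.5% ± 6.92 of the named cells in 7-day cold, 38.8% ± 5.49 in 2-day cold, 54.3% ± 11.0 at room temperature and 58.5% ± 13.6 in thermoneutral housing (SD, n = 4, 3, 4 and 4). The VSM clusters thus had their lowest mean share where Schwann_14 had its highest. Outside VSM, Schwann_14 was 12.3%, 13.99%, 19.3% and 7.69% of the named cells in 7-day cold, 5.72%, 7.57% and 3.81% in 2-day cold, 2.23%, 7.13%, 4.37% and 2.75% at room temperature and 5.77%, 2.24%, 3.01% and 3.13% in thermoneutral housing. The 7-day libraries again lay above all others, the closest being 2-day replicate 3. The log2 odds in 7-day cold were higher by 2.05 ± 0.54 than in thermoneutral housing (limma adjusted p = 0.0237) and by 1.88 ± 0.54 than at room temperature (0.0472).

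Counted against the cells of the EC clusters (a label kept as the authors wrote it), a denominator chosen after the values were seen, the pattern was similar. ECAP_4 and Lymph_EC_19 were not part of that denominator. For every 100 EC cells there were 45.6, 76.6, 77.8 and 47.3 Schwann_14 cells in 7-day cold and 25.8, 26.3 and 28.0 in 2-day cold. At room temperature there were 5.63, 18.6, 21.4 and 9.84, and in thermoneutral housing 21.2, 9.72, 13.7 and 13.8. On this scale the 2-day libraries also lay wholly above those of room temperature and thermoneutral housing, whose own ranges overlapped. The log2 ratio to EC cells was higher in 7-day cold by 2.06 ± 0.51 than in thermoneutral housing (limma adjusted p = 0.0205) and by 2.26 ± 0.51 than at room temperature (0.00890). The difference from 2-day cold, 1.16, did not pass (limma adjusted p = 0.601), nor did that of 2-day cold from thermoneutral housing, 0.89 (0.296).

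Over all cells, named or not, the call was lost. Schwann_14 was 0.979%, 3.10%, 0.817% and 1.77% of all cells in 7-day cold, and 0.994%, 0.657% and 0.530% in 2-day cold. It was 0.598%, 1.12%, 0.340% and 0.252% at room temperature and 1.00%, 0.408%, 0.130% and 0.401% in thermoneutral housing. The groups overlapped, since 7-day replicates 1 and 3 lay below the highest library of room temperature and of thermoneutral housing. The log2 odds in 7-day cold differed by 1.90 ± 0.74 from thermoneutral housing (limma adjusted p = 0.0887) and by 1.55 ± 0.74 from room temperature (0.192). Both differences had the same sign in each pair of replicates, 1.42 and 2.39 against thermoneutral housing and 1.09 and 2.00 against room temperature. The share of cells with a name moved too, at 20.1% ± 13.0 in 7-day cold, 21.5% ± 5.92 in 2-day cold, 34.3% ± 20.9 at room temperature and 31.3% ± 12.5 in thermoneutral housing (SD, n = 4, 3, 4 and 4). What part the naming, or the cell number near 10000 in 5 libraries, has in these values was not tested.

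**Figure D2:**
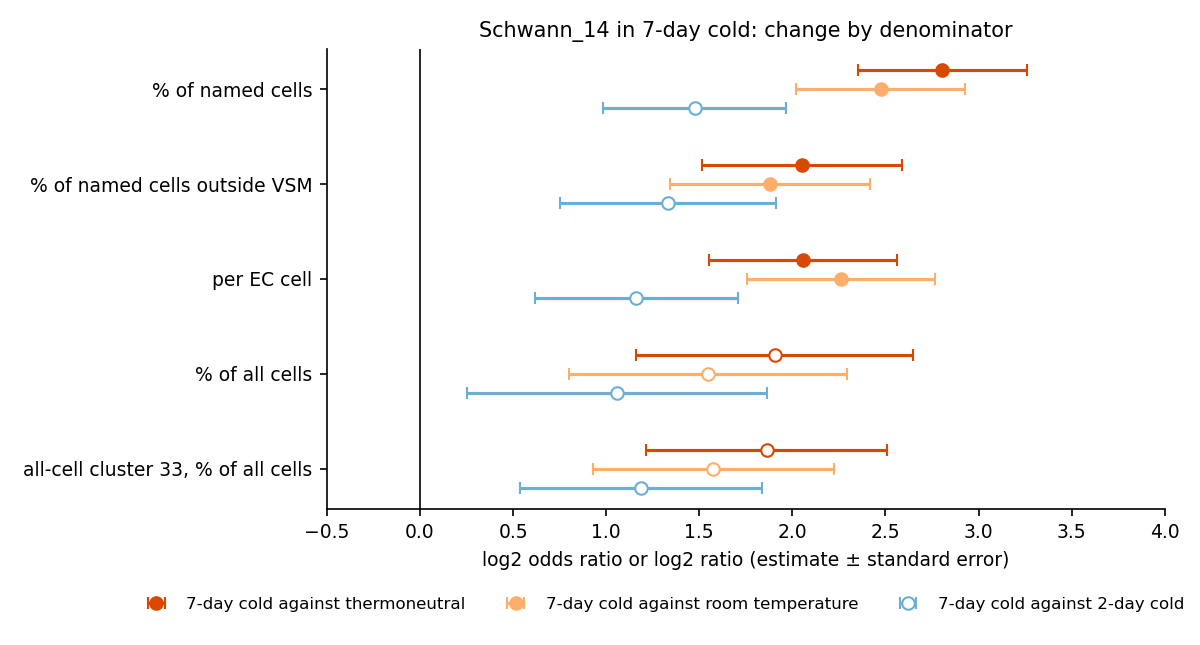
Difference of Schwann_14 in 7-day cold from each other condition (points, limma estimates, with standard errors) on 5 scales, as a log2 odds ratio or, per EC cell, a log2 ratio. Filled points passed an adjusted p of 0.05. All 15 differences lie above 0; those against thermoneutral housing and room temperature passed over named cells, outside VSM and per EC cell, and not over all cells.

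The cells were also one group in the clustering of all cells. At the finest resolution deposited (1.8), 762 of the 763 Schwann_14 cells lay in a single cluster of 912 cells, number 33 of that table, and it was the only one in which Schwann_14 was the most common name. The remainder were 137 cells with no name, 7 VSM_21 cells, 4 VSM-AP_6 cells, 1 Schwann_18 cell and 1 VSM_5 cell. Of the unnamed cells 43 came from 2-day cold replicate 1. The other 94 had a median of 5395 UMIs, against 3135.5 in the named Schwann_14 cells of the cluster. In replicate 1 of 2-day cold the 43 cells had a median of 2034 UMIs and a mitochondrial share of 3.19%, far below the median of 29.1% over that library's cells.

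As a share of all cells, cluster 33 gave the same picture as the named cells did over that denominator. It held 1.07%, 3.47%, 0.992% and 1.77% of the cells in 7-day cold, 0.430%, 1.10%, 0.759% and 0.710% in 2-day cold, 0.598%, 1.17%, 0.450% and 0.252% at room temperature and 1.11%, 0.408%, 0.200% and 0.401% in thermoneutral housing. Replicate 2 of 7-day cold stood highest, and the groups overlapped. The log2 odds in 7-day cold differed by 1.86 ± 0.65 from thermoneutral housing (limma adjusted p = 0.150), where 0% of 55 clusters passed and 8 had an unadjusted p under 0.05. They differed by 1.58 ± 0.65 from room temperature (limma adjusted p = 0.243), where 0% passed and 10 had an unadjusted p under 0.05. From 2-day cold, with all 4 libraries, they differed by 1.19 ± 0.65 (limma adjusted p = 0.375), with 1.82% of the clusters passing. The difference of 2-day cold from thermoneutral housing was 0.68 ± 0.65 (limma adjusted p = 0.654), with 9.09% passing, and 0.92 without 2-day replicate 1. From room temperature, 2-day cold differed by 0.39 ± 0.65 (limma adjusted p = 0.910), with 5.45% passing.

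The cluster held together over all settings of the clustering. The table of named cells gives cluster numbers at 8 resolutions, and at each of them Schwann_14 was 1 whole cluster with no other named cell in it. The names are the clusters at resolution 1.2, so that 1 of the 8 is fixed by how the names were made. Of the 28 names 4 did so, the others being Schwann_18, Lymph_EC_19 and AP_26, which are named here after their values were seen. In the table of all cells, 762 of the 763 cells shared a cluster at each of the 8 resolutions, and they made up 98.3% of its named cells. That cluster held 912 cells throughout, from 19 clusters at the coarsest resolution (0.1) to 61 at the finest. Schwann_14 and Schwann_18 fell mainly into different clusters at every resolution of both tables.

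The pair of Schwann clusters was set side by side as the share of Schwann_14 in their sum. In 7-day cold it was 85.7% (95% Wilson interval 76.7 to 91.6), 78.8% (71.3 to 84.8), 84.3% (75.0 to 90.6) and 46.4% (34.0 to 59.3), over 84, 137, 83 and 56 Schwann cells. In 2-day cold it was 73.4% (65.0 to 80.4), 31.4% (25.4 to 38.0) and 80.3% (69.2 to 88.1), over 124, 204 and 66 cells. Replicate 4 of 7-day cold and replicate 3 of 2-day cold thus stood well below the other libraries of their groups. At room temperature it was 68.0% (48.4 to 82.8), 78.8% (69.7 to 85.7), 22.7% (16.7 to 30.0) and 26.1% (12.6 to 46.5), over 25, 99, 150 and 23 cells. In thermoneutral housing it was 62.1% (54.4 to 69.2), 87.5% (52.9 to 97.8), 81.3% (57.0 to 93.4) and 88.9% (71.9 to 96.2), over 161, 8, 16 and 27 cells. Schwann_14 outnumbered Schwann_18 in 11 of 15 libraries, and the spread inside a group was as wide as that between groups.

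The means were 73.8% ± 18.5 in 7-day cold, 61.7% ± 26.5 in 2-day cold, 48.9% ± 28.7 at room temperature and 79.9% ± 12.3 in thermoneutral housing (SD, n = 4, 3, 4 and 4). No contrast of this share passed. In the limma fit over clusters within their class, which left out thermoneutral replicate 2 with its 8 Schwann cells, the log2 odds in 7-day cold differed by -0.17 ± 1.01 from thermoneutral housing (adjusted p = 0.944), by 1.72 ± 0.93 from room temperature (0.237) and by 0.88 ± 1.01 from 2-day cold (0.780). The share of clusters that passed by limma was 9.52%, 4.55% and 0%, with 2 clusters at an unadjusted p under 0.05 in the comparison with 2-day cold. The log2 odds in 2-day cold differed by -1.05 ± 1.08 from thermoneutral housing (limma adjusted p = 0.605), where 9.52% passed, and by 0.84 ± 1.01 from room temperature (0.837), where 0% passed and 2 had an unadjusted p under 0.05. Room temperature differed from thermoneutral housing by -1.89 ± 1.01 (limma adjusted p = 0.350), where 0% passed and 2 had an unadjusted p under 0.05.

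These differences depended on which replicates were read. In replicates 1 and 2 the log2 odds in 7-day cold were higher than in thermoneutral housing by 1.50, and in replicates 3 and 4 the difference was -1.29. For room temperature against thermoneutral housing the values were 0.75 and -3.97. The -3.97 rests on 34 and 6 Schwann_14 beside 116 and 17 Schwann_18 cells at room temperature, and on 13 and 24 beside 3 and 3 in thermoneutral housing. Without 7-day replicate 4 the difference of 7-day cold from thermoneutral housing changed sign, to 0.45, and without thermoneutral replicate 4 it was 0.32. The 95% limits of the limma difference were -2.33 and 1.98 for 7-day cold against thermoneutral housing, so changes of several-fold in odds in either direction lie within them.

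Schwann_18 itself was 1.53%, 2.72%, 2.13% and 6.38% of the named cells in 7-day cold, 1.31%, 9.13% and 0.613% in 2-day cold, 0.476%, 0.682%, 6.07% and 4.76% at room temperature and 1.63%, 0.187%, 0.216% and 0.117% in thermoneutral housing. It was thus low in all but 1 thermoneutral library and uneven in the other conditions. Its log2 odds were higher in 7-day cold than in thermoneutral housing by 3.03 ± 1.04 (limma adjusted p = 0.0290) and differed from room temperature by 0.65 ± 1.04 (0.585). Beside it, the Schwann_14 differences had a standard error of 0.46, less than that of Schwann_18, and Schwann_14 passed in both contrasts. The difference between the clusters in their response is the share of Schwann_14 in the sum, which did not pass in either.

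**Figure D3:**
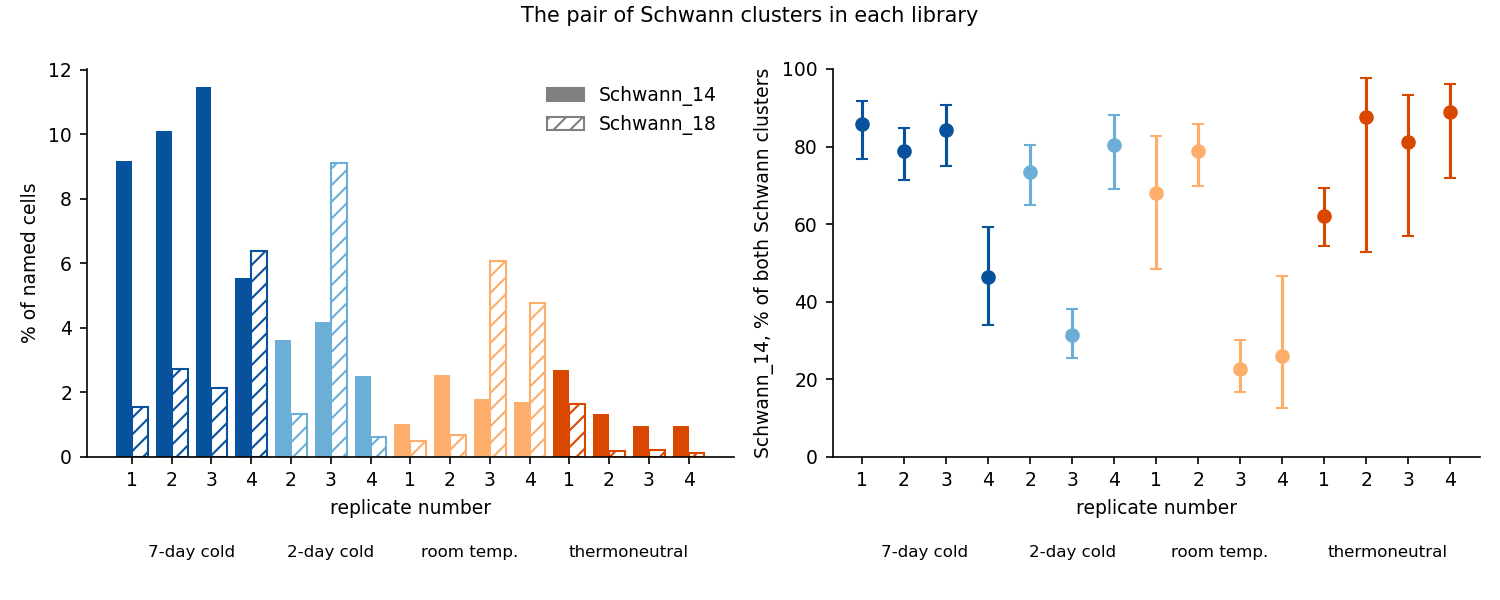
Left, Schwann_14 (solid bars) and Schwann_18 (hatched bars) in percent of the named cells of each library; right, Schwann_14 in percent of both Schwann clusters with 95% Wilson intervals. Schwann_14 is high in all 4 libraries of 7-day cold, whereas Schwann_18 is highest in 1 or 2 libraries of each of 3 conditions, and the share of Schwann_14 in the sum runs from 22.7% to 88.9%.

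The cells themselves were shallow for named cells. Over all 763 cells the median UMI count was 3136, with quartiles at 2235 and 4513, and the median number of detected genes was 1557. Taking the median over libraries, Schwann_14 ranked 26 of 28 names in UMIs and 24 of 28 in genes, with Schwann_18 at 25 and 26. Schwann_14 ranked 1 of 28 in the deposited ratio of log10 genes to log10 UMIs, at 0.917, with Schwann_18 at rank 4 with 0.903. Among its own libraries the median ratio was 0.926 in the shallowest, room temperature replicate 3 (1954.5 UMIs). It was 0.899 in the deepest, 7-day replicate 2 (5781 UMIs). How far the rank follows from low depth was not tested. Within cells of 2000 to 4000 UMIs, a window chosen after the values were seen, Schwann_14 still had more genes than Schwann_18 in 10 of 10 libraries with at least 5 cells of both, by 83 to 324 genes with a median of 156.25. Against the named cells outside both Schwann clusters in that window it had more in 10 of 13 libraries, with differences of -254 to 304 genes. These are descriptions with no test, because the clusters were drawn from the genes of the same cells.

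Depth and quality were compared between conditions with the library as replicate, leaving out room temperature replicate 4 and thermoneutral replicate 2, which had 6 and 7 Schwann_14 cells. The median UMI count was 4574.5, 5781, 2383.5 and 3135 in 7-day cold, 3064, 2615 and 2084 in 2-day cold, 3806, 2885 and 1954.5 at room temperature and 3644, 2193 and 2455.5 in thermoneutral housing. All groups overlapped, and replicates 1 and 2 were deeper than 3 and 4 in every condition where both could be read. On the log2 scale 7-day cold differed from thermoneutral housing by 0.48 ± 0.36 (limma adjusted p = 0.318), where 4.35% of 23 clusters passed, and the pairs of replicates gave 0.50 and 0.24. The log2 number of detected genes differed by 0.37 ± 0.25 (limma adjusted p = 0.213), with 4.35% of clusters passing and differences of 0.38 and 0.22 in the pairs. Differences of 2-day cold and of room temperature from thermoneutral housing were -0.08 ± 0.39 and 0.04 ± 0.39 in UMIs (limma adjusted p = 0.957 and 0.961) and 0.00 ± 0.26 and 0.04 ± 0.26 in genes (0.995 and 0.974), with 0% of 25 clusters passing by limma in each, and 0 and 1 clusters at an unadjusted p under 0.05 in UMIs and in genes alike.

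Set against the median of all cells of their library, a ratio chosen after the values were seen, Schwann_14 cells had 1.12, 1.17, 0.957 and 1.02 times that median in 7-day cold and 0.961, 1.01 and 0.838 times in 2-day cold. At room temperature the ratio was 0.520, 0.579, 0.988 and 0.918, and in thermoneutral housing 0.855, 1.00, 0.698 and 0.671. Of the 7-day libraries 3 lay above 1, and outside that group only 2-day replicate 3 and thermoneutral replicate 2 reached it. In counts, 160 of 276 cells (58.0%) lay at or above their library's median in 7-day cold, 92 of 208 (44.2%) in 2-day cold, 24 of 135 (17.8%) at room temperature and 37 of 144 (25.7%) in thermoneutral housing. The last 2 counts rest mainly on 1 library each, room temperature replicate 3 and thermoneutral replicate 1. At room temperature the libraries gave 0 of 17, 5 of 78, 17 of 34 and 2 of 6, and in thermoneutral housing 31 of 100, 4 of 7, 1 of 13 and 1 of 24. The lowest UMI count kept was 1658 and 1459 in 2-day replicates 1 and 4, 1031 in room temperature replicate 3 and 1850 and 1921 in thermoneutral replicates 1 and 3. These are the 5 libraries with 10000 to 10005 cells, and none is of 7-day cold. In the other libraries the lowest count was 800 to 809. The Schwann_14 cells themselves went down to 813 UMIs, with a lower quartile of 2235. Whether cells of low depth were lost unequally was not tested.

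The median mitochondrial share of the Schwann_14 cells was 3.69%, 3.64%, 3.37% and 3.33% in 7-day cold, 1.87%, 3.32% and 2.27% in 2-day cold, 2.66%, 1.85% and 2.45% at room temperature and 1.87%, 2.38% and 2.98% in thermoneutral housing. The 7-day libraries lay above all those of the other conditions used in the fit, by a narrow margin over 2-day replicate 3. Of the libraries left out, room temperature replicate 4 had 4.07%, above every 7-day library, and thermoneutral replicate 2 had 2.11%. The difference of 7-day cold from thermoneutral housing was 1.09 ± 0.47 percentage points (limma adjusted p = 0.152), where 4.35% of 23 clusters passed, and it was 1.79 in replicates 1 and 2 and 0.66 in replicates 3 and 4. With a covariate for the pairs of replicates it was 1.15 and passed (limma adjusted p = 0.0473), as 1 of 8 clusters that then passed. The difference was above 0 in 19 of the 23 clusters, and Schwann_14 was itself the median of them. In 2-day cold and at room temperature the share differed from thermoneutral housing by 0.07 ± 0.50 and -0.09 ± 0.50 percentage points (limma adjusted p = 0.974 and 0.994), with 0% of clusters passing and 0 at an unadjusted p under 0.05.

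The deposited cell cycle calls, made from scores of S-phase and G2M-phase genes, put 63.4% of the Schwann_14 cells in S or G2M in the table of named cells and 24.0% in the table of all cells. The 2 tables gave the same call for 59.8% of the cells. Only 34 of the 763 cells (4.46%) had a score above 0.1 in the table of named cells, so most calls rested on scores near 0, and no statement on dividing cells is drawn from them. In the table of named cells S or G2M calls made up 56.9%, 55.6%, 71.4% and 76.9% in 7-day cold, 53.8%, 56.3% and 69.8% in 2-day cold, 47.1%, 70.5% and 67.6% at room temperature and 64.0%, 84.6% and 83.3% in thermoneutral housing. Thermoneutral replicates 3 and 4 stood highest, and the groups overlapped. The log2 odds in 7-day cold differed by -0.82 ± 0.50 from thermoneutral housing (limma adjusted p = 0.187), in a contrast where 47.8% of the clusters passed and the median over clusters was -0.89. Those in 2-day cold differed by -1.15 ± 0.53 (limma adjusted p = 0.257) and those at room temperature by -1.03 ± 0.53 (0.822), where 0% of clusters passed in each and 4 and 0 had an unadjusted p under 0.05. With the replicate number as a block the 2-day difference was -1.38 and passed (limma adjusted p = 0.0453). With the calls of the table of all cells the 2-day and room-temperature differences turned to 0.62 and 1.00. In those calls the share was 12.5%, 13.0%, 28.6% and 30.8% in 7-day cold, 19.8%, 25.0% and 45.3% in 2-day cold, 23.5%, 29.5% and 52.9% at room temperature and 17.0%, 23.1% and 20.8% in thermoneutral housing.

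**Figure D4:**
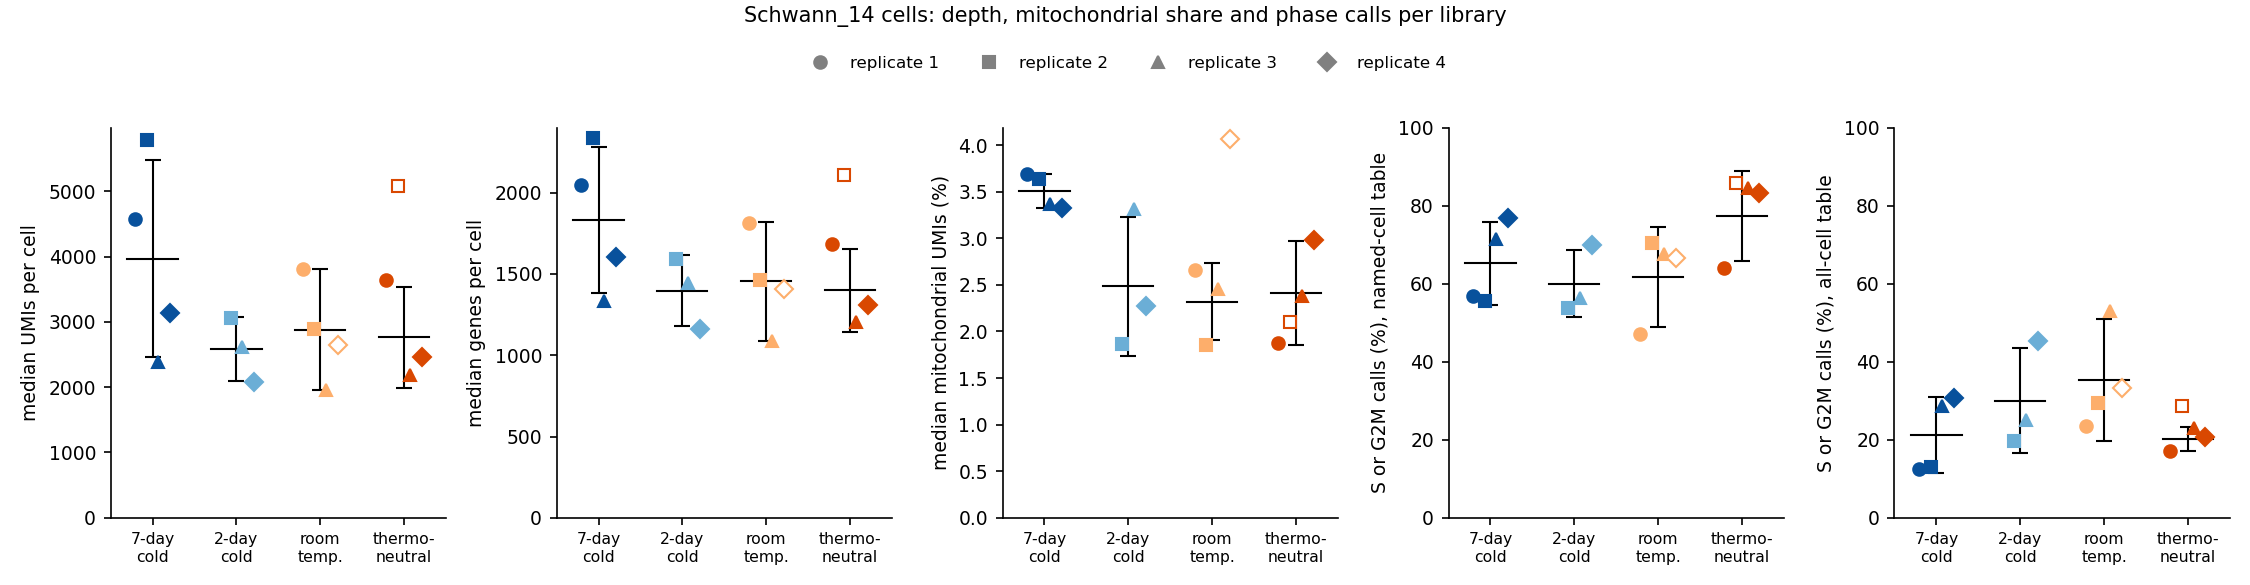
Median UMI count, detected genes, mitochondrial share and share of S or G2M calls (in the table of named cells and in that of all cells) of the Schwann_14 cells of each library by housing condition, with bars at the group means and error bars of 1 SD. Open points are the libraries with 6 and 7 Schwann_14 cells, left out of means and tests. The 7-day libraries overlap the other conditions in UMIs, genes and calls, and lie at 3.33% to 3.69% in mitochondrial share.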

How the data were processed

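Per the labels' protocols, interscapular brown fat was digested with collagenase and dispase, the fat layer, red blood cells and dead cells were removed, and 10x Genomics Chromium 3' v3 reagents were used. The submitters' processing notes name STAR, Cell Ranger 3.0.1 and the mm10 build. Not given in the sources used here is how cells were filtered, integrated and clustered.

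The authors deposited whole-number counts of UMIs and of detected genes for each cell. The mitochondrial fraction was deposited by the authors and is printed in percent. A ratio of log10 genes over log10 UMIs, the S and G2M scores, the phase calls, the cluster numbers and the names were also deposited by the authors.

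Groups follow the labels, and the library was the replicate. Shares, with 0.5 cells added inside and outside a cluster, were fitted on the log2 odds scale with limma 3.58.1 in R 4.3.3 over all 4 groups, adjusted by Benjamini-Hochberg within a contrast (two-sided, threshold 0.05). Families were the 27 named clusters whose mean was 10 cells or more, clusters within a class of names (libraries with at least 10 cells of the class), the 55 clusters of all cells at resolution 1.8, and medians or shares per cluster (at least 10 cells per library). edgeR 4.0.16, other scales, filters, denominators and left-out libraries were alternatives, as was the replicate block. Schwann_14, Schwann_18 and clusters of larger difference were the clusters to be named. The members and lists were chosen with earlier results of these data known. The fit was run on simulated data in which each cluster was drawn independently of the others and of the replicate pairs. That setting is simpler than these libraries, and no result here rests on it. Libraries held 1473 to 10005 cells, and no 2 libraries of a group agreed within sampling noise.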

Additional observations from a re-analysis of the deposited data

How the results depend on the processing

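Over 705 recomputed values, 659 kept their direction and their side of the threshold, 38 turned in sign, 4 gained a call and 4 lost one. In the main fits only the share of named cells in 7-day cold passed, against thermoneutral housing and against room temperature. Most of the values that kept their side therefore belong to differences that did not pass, and the total is not read as support. The higher share of named cells in 7-day cold held against thermoneutral housing and room temperature in all 15 fits that left out 1 library (highest limma adjusted p 0.00160 and 0.00969), and was lost only over all cells, at 1.90 and 1.55 with limma adjusted p = 0.0887 and 0.192, or 0.0611 and 0.105 with replicates 1 and 2 against 3 and 4 as covariate. In 7-day against 2-day cold only the arcsine difference, 0.118, passed. Room temperature against thermoneutral housing turned in the deeper cells, those no shallower than their library's median (-0.075), with centred log ratios (-0.044), edgeR with TMM (-0.0059) and EC cells (-0.20). Leaving out 1 library, 2-day cold against thermoneutral housing ranged from 1.16 to 1.66.

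Schwann_14 in the sum of both Schwann clusters, 7-day cold against thermoneutral housing, turned to 0.16 in the deeper cells and to 0.45 in libraries of 3000 cells or more, and ranged from -0.73 to 0.45 without 1 library. Against 2-day cold the range was -0.069 to 1.50. Cluster 33 at room temperature against thermoneutral housing ranged from -0.093 to 0.73.

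In 2-day cold against thermoneutral housing the ranges without 1 library were -0.23 to 0.14 in UMIs, -0.10 to 0.14 in genes and -0.34 to 0.38 in mitochondrial share, and genes were at -0.10 with at least 20 cells. At room temperature against thermoneutral housing the ranges were -0.18 to 0.30, -0.14 to 0.23 and -0.36 to 0.19. There, with at least 20 cells, UMIs and genes were at -0.33 and -0.24. With the replicate block UMIs, genes and mitochondrial share were at -0.16, -0.10 and 0.049, and with that covariate at -0.19, -0.12 and 0.016. The mitochondrial difference of 7-day cold passed with that covariate (1.15, limma adjusted p = 0.0473). S or G2M calls of the table of all cells turned the 2-day difference to 0.62 and that of room temperature to 1.00, and the replicate block gave -1.38 in 2-day cold (limma adjusted p = 0.0453). The causes were not tested.

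Called clusters in 7-day cold against thermoneutral housing were 10, and 17 with that covariate, 6 among clusters of at least 50 cells, 5 in deeper cells, 3 outside VSM, 3 against EC cells, 0 over all cells and 4 to 14 without 1 library. Against room temperature they were 2, and 8 with the block or the covariate, 6 under 20% mitochondrial, 4 with TMM or only the 2 groups, 1 outside VSM or among clusters of at least 50 cells, 0 over all cells and 2 to 6 without 1 library. Whether replicate numbers pair the samples is not settled by these values. Of the same-numbered pairs, 12 of 21 correlated above 0.1 (median 0.22, -0.30 to 0.65), and 7 of 15 libraries correlated best with their own number. Differently numbered libraries correlated above 0.1 in 13 of 21 pairs (median 0.16) within numbers 1 and 2 or 3 and 4, and in 6 of 42 (median -0.19) across them. The pair of thermoneutral and room-temperature libraries with 7 and 6 Schwann_14 cells limits cell measures to 3 libraries there.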
